A study of Mus musculus with 18 samples.

Results

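Hippocampi of untreated wild-type mice were profiled on 7 microarrays read in 1 colour. The labels number the samples, and each number is taken here as 1 mouse. The arrays carried identifiers of 2 array series, and every wild-type sample of the study was used: mice 4 to 7 lay in the second series (n = 4) and mice 1 to 3 in the first (n = 3). They make up 7 of the study's 18 arrays. The other 11 came from AtrxΔE2 mice, which carry a deletion of exon 2 of the X-linked chromatin remodeller gene Atrx, 7 of them untreated (4 in the second series and 3 in the first) and 4 given oral 5-aminolevulinic acid (5-ALA), a haem precursor, daily over postnatal days 30 to 90 in a dose of 3 mg/kg, all in the second series. Both wild-type groups share genotype, tissue label and lack of treatment, and strain, sex, age at sampling and the manner of dissection are not given in the labels. The comparison asks what sets 2 groups of nominally identical hippocampi apart. Mice, dissection, RNA preparation, array production, hybridisation and scan can each differ between the series, and their parts cannot be told apart. Whether consecutive second-series arrays share an animal, day or slide is not stated, and p-values measure the spread between these arrays only.

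The hippocampus is a sheet of pyramidal neurons (the fields CA1, CA2 and CA3) joined to the granule neurons of the dentate gyrus. It lies against other tissue on every side. Its inner edge carries the fimbria, a bundle of myelinated axons, and faces the lateral ventricle, which is lined by ciliated ependyma and holds the choroid plexus, the epithelium that secretes cerebrospinal fluid. The thalamus and habenula lie beneath it, the septum and striatum in front of it, and the subiculum and cortex continue from its outer edge. Each of these neighbours expresses genes that hippocampal neurons express weakly or not at all, so such genes are used to check what a dissected piece holds. In tissue RNA, more cells of a type and more RNA per cell cannot be told apart.

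Each level below is the authors' normalized intensity, a linear value whose median is 25 on every array, and second-series values are listed in the order of mice 4, 5, 6 and 7 and first-series values in the order 1, 2 and 3. Each difference is second minus first series on the log2 scale of background-corrected, quantile-normalized intensity, where an offset of 50 shrinks the change of dim genes. Levels of different genes come from different probes and are not compared with each other. Blank spots averaged 55.3 to 56.6 intensity units on the second-series wild-type arrays, against 37.1 to 38.7 on the first-series arrays. Between 90.7% and 92.8% of probes exceeded the 95th percentile of the blanks in the second series, against 94.5% to 95.8% in the first. The number of arrays limits the precision.

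The 2 wild-type sets differed widely. Of 22746 tested probes, 9375 (41.2%) passed limma's test after Benjamini-Hochberg adjustment (threshold 0.05) and are termed called, 4180 higher (18.4%) and 5195 lower (22.8%) in the second series. Most of these differences were small, with a median size of 0.25, and 288 probes (1.27%) were called with a difference over 1, of which 237 (1.04%) were higher and 51 (0.224%) were lower. The 4 second-series values and the 3 first-series values did not overlap for 48.7% of the probes. The 20 largest rises among named genes held 7 choroid plexus genes, 6 myelin genes, 2 striatal, 2 thalamic and 1 dentate gene of the lists used here, and 2 genes of no list. Of the 20 largest falls, 18 belonged to no list.

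Small differences hung on the scaling of the arrays. Under quantile normalization or cyclic loess the median difference stayed within 0.031 of 0 in each of 4 equal classes of brightness. With arrays scaled to their median instead, the dimmest class of probes had a median difference of 0.16 and the brightest one of -0.50, and the authors' table gave 0.11 and -0.43. The median over all probes was -0.0122 in the fit and -0.21 on the authors' table, and the share of calls that were higher was 44.6% in the fit, 51.7% with median scaling, 52.3% with cyclic loess and 28.4% on the authors' table (3255 higher and 8196 lower). A bright gene with a difference of the size of these shifts can therefore change sign between scalings, and directions below are relative to the other genes of the same brightness.

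**Figure D1:**
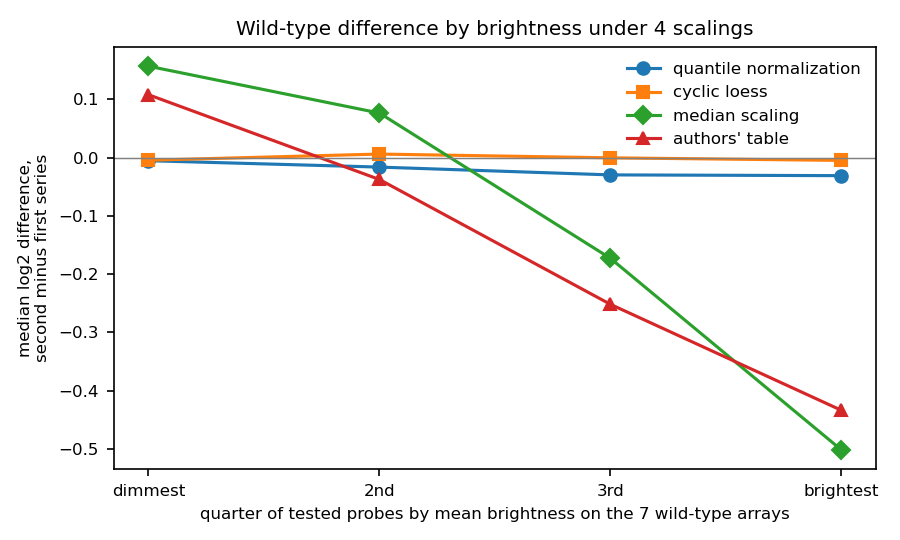
The median log2 difference (vertical axis) of all tested probes, second minus first wild-type series, is plotted for 4 equal classes of probe brightness (horizontal axis) under 4 scalings, 1 line each. Quantile normalization and cyclic loess lie close to 0, while median scaling and the authors' table run down to -0.50 and -0.43 in the brightest class.

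Choroid plexus genes had the largest median difference of the 38 lists in the fit, though without background correction their median of 1.12 was below the 1.31 of myelin genes. Of 21 measured members, each read by its brightest probe, 19 were called higher in the second series and 0 lower, where 41.6% of all genes were called, 17.9% higher and 23.7% lower. The list's median difference was 1.58, against -0.0122 over all tested probes. Ttr, which encodes the thyroid hormone carrier transthyretin and is the classical choroid plexus transcript, stood at 23789, 28856, 29263 and 28403 on the second-series arrays, against 4.9, 7.5 and 68.8 on the first-series arrays. Every second-series value was far above each first-series value, and 2 of the 3 first-series arrays were below the median probe. On the log2 scale it averaged 15.63 ± 0.11 in the second series and 6.47 ± 0.80 in the first (SD, n = 4 and 3), a difference of 9.16 (SE 0.28, limma adjusted p 1.05e-11). Folr1, the folate receptor that carries folate into cerebrospinal fluid, stood at 222, 216, 220.5 and 216 on the second-series arrays, against 1.7, 2.2 and 1.4 on the first-series arrays. Kl, the gene of the FGF co-receptor klotho, stood at 172, 172, 154 and 160.3 on the second-series arrays, against 4.2, 6.3 and 5.9 on the first-series arrays. For both genes the first-series arrays were far under the median probe and the groups were wide apart, with differences of 3.17 (SE 0.11, limma adjusted p 2.93e-11) and 2.62 (SE 0.09, limma adjusted p 2.31e-11).

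Other leading members were apart in the same way. Sostdc1, a secreted BMP and Wnt antagonist gene, stood at 209, 216, 218 and 265 on the second-series arrays, against 6.5, 4.3 and 5.3 on the first-series arrays. Clic6, of the intracellular chloride channel family, stood at 147, 139, 129.9 and 149 on the second-series arrays, against 1.1, 1.7 and 2.4 on the first-series arrays. Both rose, by 3.04 and 2.61. Calml4 (calmodulin-like), the secreted peptide gene Ecrg4 and the potassium channel subunit gene Kcne2 rose by 2.73, 3.39 and 2.18. The 2 members not called were the sulfate transporter gene Slc13a4, at 0.25 (limma adjusted p 0.144, and 0.0162 with only the 7 wild-type arrays in the fit), and the angiotensin-converting enzyme gene Ace, at 0.01 (limma adjusted p 0.803). The count of 19 higher and 0 lower was the same under median scaling, cyclic loess and the authors' table. Guca1a, a guanylate cyclase activator gene known from the retina, belonged to no list and stood at 568, 688, 769 and 757 on the second-series arrays, against 26.6, 22.4 and 24.0 on the first-series arrays. It rose by 3.96 (SE 0.09, limma adjusted p 4.00e-13).

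**Figure D2:**
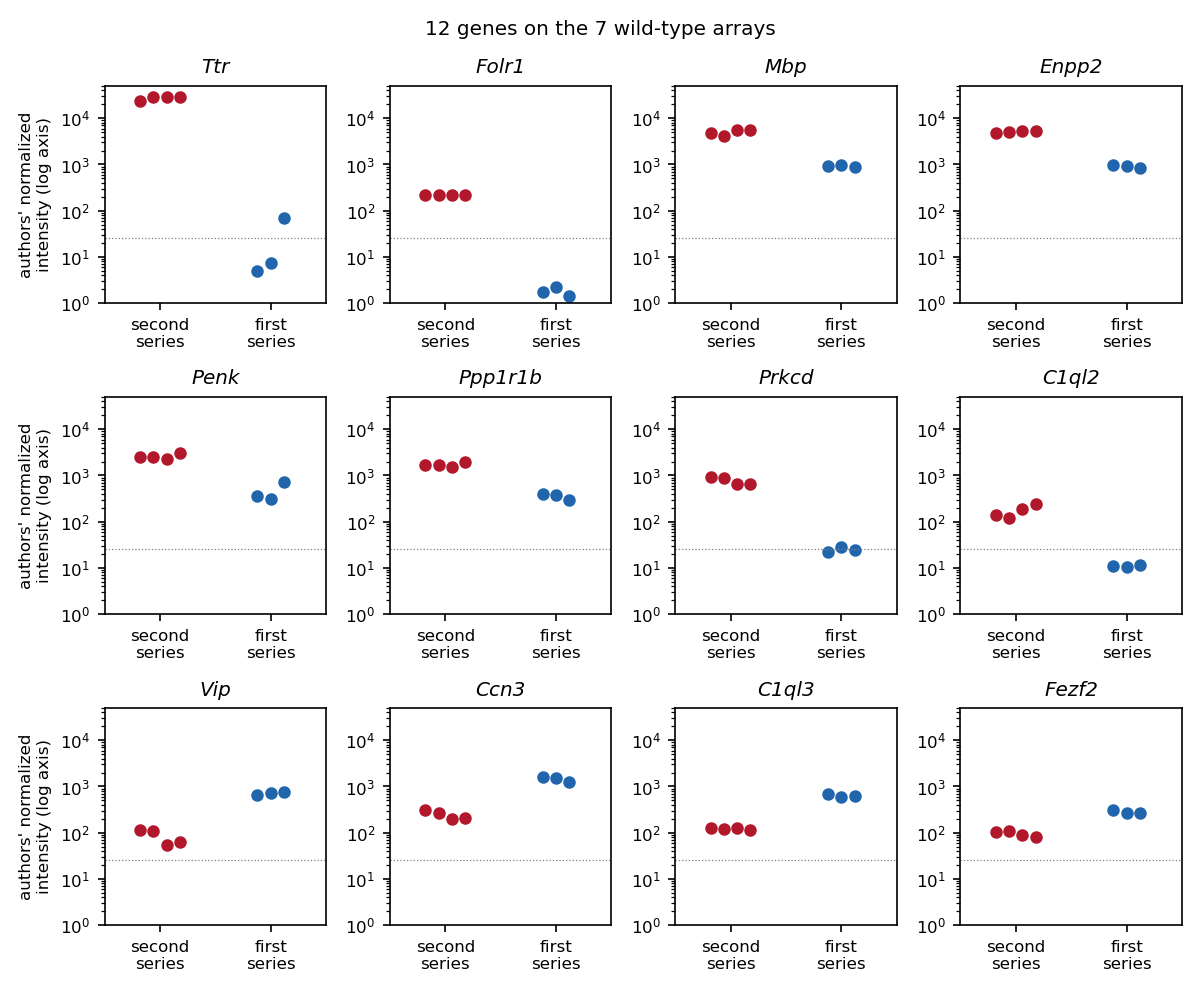
The authors' normalized intensity (vertical log axis) of 12 genes is plotted for each wild-type array, with the 4 second-series arrays on the left in red and the 3 first-series arrays on the right in blue, and the dotted line marks 25, the median of every array. The first 8 genes lie higher in the second series, with Ttr near 28403 against at most 68.8, and Vip, Ccn3, C1ql3 and Fezf2 lie lower. The groups overlap for none of the 12, which were picked from the named genes. On the log2 scale of the fit, the groups did not overlap for 48.7% of all tested probes.

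Ependymal genes rose as well. Of 14 measured members, 10 were higher and 0 lower, where 17.9% of all genes were higher and 23.7% lower. The median difference was 0.89. Tmem212, an ependymal membrane protein gene, stood at 79.2, 86.9, 101 and 125 on the second-series arrays, against 3.7, 3.4 and 3.4 on the first-series arrays. Foxj1, the transcription factor that switches on motile cilia, stood at 33.0, 36.3, 42.8 and 43.2 on the second-series arrays, against 5.0, 5.7 and 5.1 on the first-series arrays. Within the second series, mice 6 and 7 had higher values than mice 4 and 5 for both genes, and every second-series value was above every first-series value. Tmem212 rose by 2.06 and Foxj1 by 1.02. Cfap126, Rarres2 and Ak7 rose by 1.45, 1.41 and 0.75. The cilia genes Enkur (0.15), Ccdc39 (0.02) and Hydin (0.01) were among the 4 not called, of which Hydin was called under median scaling (0.17).

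All 28 measured oligodendrocyte and myelin genes were higher in the second series, with a median difference of 1.42, where 17.9% of all genes were higher. Mbp, myelin basic protein, stood at 4725, 4057, 5653 and 5487 on the second-series arrays, against 904, 974 and 901 on the first-series arrays. It averaged 13.33 ± 0.23 in the second series and 10.49 ± 0.07 in the first on the log2 scale (SD, n = 4 and 3), a difference of 2.84 (SE 0.18, limma adjusted p 5.46e-08). Mobp, another myelin structural gene, stood at 3624, 3572, 3719 and 4265 on the second-series arrays, against 766, 972 and 774 on the first-series arrays. Trf, the transferrin gene that oligodendrocytes express, stood at 3191, 3451, 3595 and 3488 on the second-series arrays, against 750.1, 889 and 682 on the first-series arrays. In each case the lowest second-series value was well above the highest first-series one. Bcas1, a gene of newly myelinating oligodendrocytes, rose by 2.65, the myelin adhesion gene Mag by 2.26, Cnp, a myelin enzyme gene, by 2.10 and Opalin by 1.98. Enpp2, which makes the lysophospholipase D autotaxin and is known from both oligodendrocytes and choroid plexus, stood at 4836, 5125, 5239.5 and 5315 on the second-series arrays, against 959.9, 908 and 858 on the first-series arrays, and rose by 2.90. The myelin count was 28 under cyclic loess, 26 under median scaling and 27 on the authors' table, with 0 lower in each. Mog, a usual marker of this cell type, has no tested probe under that name.

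Genes of the precursor stage and of the lineage's transcription factors had smaller differences. Of 11 measured genes of oligodendrocyte precursors, 6 were higher and 0 lower, with a median of 0.20, against 17.9% and 23.7% of all genes. Olig1 stood at 436, 478, 515 and 508 on the second-series arrays, against 255, 168 and 232 on the first-series arrays, and rose by 1.43. Sox10 rose by 0.99 and Olig2 by 0.67, genes active both in precursors and in mature oligodendrocytes. Of the markers of the precursors themselves, the proteoglycan gene Cspg4 (NG2) rose by 0.22 and the growth factor receptor gene Pdgfra stood at 0.21 and was not called (limma adjusted p 0.077). Pdgfra was called with only the 7 wild-type arrays in the fit (0.0129) and under cyclic loess (0.0418), and stood at -0.14 under median scaling and -0.070 on the authors' table.

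Striatal genes rose nearly as a whole. Of 16 measured members, 14 were higher and 0 lower, against 17.9% and 23.7% of all genes, and the median difference was 0.89. Most encode signalling proteins of the medium spiny neuron, the projection neuron of the striatum. Penk, the precursor of enkephalin, stood at 2509, 2493, 2241 and 3036 on the second-series arrays, against 360.3, 306 and 714 on the first-series arrays. Ppp1r1b, the gene of the dopamine-regulated phosphatase inhibitor DARPP-32, stood at 1687, 1700.1, 1505 and 1932 on the second-series arrays, against 393, 382 and 299.9 on the first-series arrays. The groups were apart for both genes, and first-series mouse 3 had the highest Penk and the lowest Ppp1r1b value of its group. The differences were 2.90 (SE 0.25, limma adjusted p 7.67e-07) and 2.57 (SE 0.20, limma adjusted p 2.43e-07). Tac1, the substance P precursor, stood at 279, 290.0, 279 and 276 on the second-series arrays, against 50.1, 37.7 and 56.1 on the first-series arrays, and rose by 2.23. The dopamine receptor gene Drd2 stood at 36.4, 38.5, 38.2 and 37.9 on the second-series arrays, against 6.1, 3.1 and 4.2 on the first-series arrays, and rose by 1.04, and Drd1 rose by 0.81 (SE 0.19, limma adjusted p 0.00323). Rgs9, the phosphodiesterase gene Pde10a, Rasd2 and the orphan receptor gene Gpr6 rose by 2.21, 1.13, 0.99 and 0.96. Ido1 stood at 0.03 and was not called except under median scaling (0.19). The striatal count was 14 under cyclic loess and on the authors' table and 16 under median scaling, with 0 lower in each.

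Thalamic and habenular genes were higher in 6 of 11 measured members and lower in 0, against 17.9% and 23.7% of all genes, with a median of 0.50. Prkcd, a protein kinase C gene of thalamic relay neurons, stood at 907, 885, 638 and 639.7 on the second-series arrays, against 22.2, 28.1 and 24.7 on the first-series arrays, and rose by 4.08 (SE 0.47, limma adjusted p 1.10e-05). Slc17a6, the vesicular glutamate transporter VGLUT2 of subcortical neurons, stood at 296, 311, 258 and 249 on the second-series arrays, against 37.2, 37.2 and 60.6 on the first-series arrays, and rose by 2.28 (SE 0.22, limma adjusted p 2.08e-06). In both, mice 4 and 5 had higher levels than mice 6 and 7. Lhx9, a transcription factor of thalamus and habenula, stood at 30.7, 31.2, 40.3 and 49.9 on the second-series arrays, against 1.8, 1.7 and 1.1 on the first-series arrays, here with the higher values in mice 6 and 7, and rose by 1.18. The habenular receptor gene Gpr151 stood at 15.4, 16.0, 59.6 and 64.8 on the second-series arrays, against 17.8, 14.5 and 21.9 on the first-series arrays. Mice 6 and 7 stood far above mice 4 and 5, whose values overlapped the first series, and Gpr151 was not called (0.50, limma adjusted p 0.0811). It was called without mouse 4 (limma adjusted p 0.0164) or without mouse 5 (0.0151), at differences of 0.68 and 0.69. Rgs16, the synaptic adhesion gene Ntng1 and Lef1 rose by 1.50, 1.27 and 0.30. The probe for Tcf7l2, a thalamic transcription factor, exceeded the blanks on 0 of the 4 second-series arrays and 2 of the 3 first-series arrays and was not called. Tnnt1, slow skeletal troponin T, belonged to no list, stood at 321, 399, 262 and 236 on the second-series arrays, against 17.0, 17.7 and 22.0 on the first-series arrays, and rose by 2.95.

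Of 8 measured genes of the septum and of cholinergic neurons, 4 were higher and 0 lower (median 0.26), against 17.9% and 23.7% of all genes. These were the transcription factor genes Zic1 (1.25), Zic2 (0.69) and Lhx8 (0.32) and Chat (0.40), the enzyme that makes acetylcholine. Zic1 stood at 231, 252, 194 and 217 on the second-series arrays, against 83.3, 87.0 and 131 on the first-series arrays. Chat stood at 27.8, 30.8, 29.9 and 26.3 on the second-series arrays, against 16.2, 15.9 and 16.4 on the first-series arrays, above the median probe in the second series and below it in the first. The authors' table gave 4 higher and 1 lower of the 8, and 3255 higher and 8196 lower of 20910 probes.

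Markers of the hippocampal fields themselves checked the labelled tissue, and they did not move as one block. Of 12 dentate granule genes 2 were higher and 3 lower, of 9 CA3 genes 3 higher and 0 lower, of 6 CA2 genes 2 higher and 3 lower, and of 8 CA1 genes 1 higher and 3 lower, with medians of 0.0033, 0.04, -0.0079 and -0.10. Over all genes 17.9% were called higher and 23.7% lower. C1ql2, a secreted synaptic organiser made by dentate granule neurons, stood at 141, 122, 187 and 243 on the second-series arrays, against 11, 10.6 and 11.6 on the first-series arrays. Every first-series value was under the median probe and mice 6 and 7 had the highest values. C1ql2 rose by 2.44 (SE 0.44, limma adjusted p 5.29e-04). The dentate markers Dsp (desmoplakin) and Lct (lactase) stood at 14.3, 16.9, 23.3 and 22.7 on the second-series arrays, against 3.4, 2.9 and 2.6 on the first-series arrays for Dsp, and at 24.3, 26.4, 32.4 and 35.9 on the second-series arrays, against 11.9, 12.5 and 11.6 on the first-series arrays for Lct. Neither pair of groups overlapped, but the calls were missed in the fit of all 18 arrays (limma adjusted p 0.0627 and 0.148) and made when only the 7 wild-type arrays entered it (0.000861 and 0.00107). The probe of Prox1, the dentate transcription factor, read 8.2, 10.4, 11.1 and 11.3 on the second-series arrays, against 9.4, 9.9 and 7.5 on the first-series arrays, under the median probe throughout, and was not called (0.03) except under median scaling (0.15).

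Among pyramidal markers, Spink8, a CA1 gene, stood at 162, 174, 263 and 281 on the second-series arrays, against 66.1, 74.7 and 62.9 on the first-series arrays. Necab2, a calcium-binding protein gene of CA2, stood at 187, 182, 228 and 264 on the second-series arrays, against 68.4, 86.8 and 81.5 on the first-series arrays. Both were higher in the second series, most so in mice 6 and 7, by 1.56 (SE 0.15, limma adjusted p 2.78e-06) and 1.42 (SE 0.11, limma adjusted p 2.68e-07). The CA3 genes St18, Bok and Iyd rose by 1.03, 1.01 and 0.42, where Iyd was near the blanks in the first series, at 1.6, 1.4 and 1.7. Amigo2, an adhesion gene of CA2, stood at 0.34 (limma adjusted p 0.0105), a call lost with mice 4 and 5 alone as the second series (0.155). Wfs1, a CA1 gene, was not called (-0.18), but was called lower under median scaling (-0.395, limma adjusted p 0.00222), on the authors' table (-0.50, 0.00528) and with mice 6 and 7 alone (-0.305, 0.0447).

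Other members of the same lists were lower in the second series. Calb1, the calcium buffer calbindin of dentate and CA1 neurons, stood at 293, 335, 389 and 347 on the second-series arrays, against 655, 1122 and 946 on the first-series arrays. Ccn3, also known as Nov and found in CA1 and in deep cortical layers, stood at 307, 266, 202 and 208 on the second-series arrays, against 1576, 1513 and 1249 on the first-series arrays. The groups did not overlap for either gene, and the differences were -0.88 (SE 0.15, limma adjusted p 4.00e-04) and -2.01 (SE 0.39, limma adjusted p 8.43e-04). Stxbp6, Mpped1, Man1a and the CA2 gene Rgs14 fell by 0.84, 1.02, 0.47 and 0.26. Under median scaling the CA3 list held 5 higher and 3 lower and the dentate list 6 higher and 2 lower. That scaling called more of all 22746 probes, 8607 higher and 8046 lower, against 4180 and 5195 in the fit. The split within these fields depends on the scaling.

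The largest falls lay mostly outside the lists and are given gene by gene. Vip, the peptide of a class of inhibitory interneurons, stood at 115, 109, 53.0 and 62.0 on the second-series arrays, against 650.2, 733 and 756 on the first-series arrays, and fell by 2.39 (SE 0.27, limma adjusted p 9.78e-06). C1ql3, a secreted synaptic organiser gene, stood at 125, 120.2, 126 and 116 on the second-series arrays, against 683, 605 and 621 on the first-series arrays. Cckbr, the brain receptor for cholecystokinin, stood at 76.5, 63.5, 54.5 and 63.7 on the second-series arrays, against 331, 364 and 332 on the first-series arrays. The second-series levels were a small part of the first-series ones in all 3 genes, without overlap, and C1ql3 and Cckbr fell by 1.76 and 1.69. Lmo4, a transcriptional co-regulator of cortical neurons, stood at 1443, 1349, 1283 and 1463 on the second-series arrays, against 6164, 5988 and 5596 on the first-series arrays, and fell by 1.59. The neuropeptide genes Grp and Adcyap1 (PACAP) fell by 1.56 and 1.33, the transcription factor gene Tox by 1.44, the Wnt agonist gene Rspo2 by 1.28, and Serpini1 (neuroserpin), Nrsn1, Cbln2 and Pcdh10 by 1.40, 1.33, 1.26 and 1.26. Dkkl1, Prkacb, Glt8d2 and Hkdc1 fell by 1.26, 1.25, 1.16 and 1.38. The troponin genes Tnnc1 and Tnnt2, of slow or cardiac muscle, fell by 1.98 and 1.30.

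Tubb5, a beta-tubulin gene, had the widest spread of these, at 148, 866, 1409 and 685 on the second-series arrays, against 5402, 4501 and 3803 on the first-series arrays. Mouse 4 was lowest by a wide margin. The Tubb5 difference of -2.42 (SE 0.76, limma adjusted p 0.0196) was no longer called without first-series mouse 1 (0.0603), first-series mouse 2 (0.0519) or second-series mouse 4 (0.0575), where it was -2.30, -2.41 and -1.81. Tubulin genes are close relatives in sequence, so which copy this probe reads is uncertain.

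Of 12 genes of the cortex and subiculum, 1 was higher and 5 were lower (median -0.12), against 17.9% and 23.7% of all genes. Fezf2, which specifies deep-layer projection neurons, stood at 102, 107, 89.0 and 79.7 on the second-series arrays, against 309, 261 and 262 on the first-series arrays. Lamp5 stood at 375, 392, 351 and 350.1 on the second-series arrays, against 941, 1048 and 970.0 on the first-series arrays. Deptor, an inhibitor of the kinase mTOR, stood at 66.7, 73.6, 60.8 and 64.5 on the second-series arrays, against 140.3, 155 and 147 on the first-series arrays. All 3 were lower on every second-series array, by -1.0, -0.92 and -0.65. The 1 higher gene was Nr4a2, a nuclear receptor of the claustrum and deep cortex, at 224, 215, 224 and 229.6 on the second-series arrays, against 26.5, 32.0 and 55.8 on the first-series arrays, with a difference of 2.14 (SE 0.29, limma adjusted p 5.40e-05). Median scaling called 5 of the 12 higher and 5 lower, and 8607 of all 22746 probes higher and 8046 lower. Of 12 hypothalamic genes 0 were higher and 2 lower, of 7 cerebellar genes 2 higher and 3 lower, and of 8 genes of neurogenesis and cell division 0 higher and 2 lower.

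Of 20 interneuron genes 2 were called higher and 7 lower, with a median of -0.0030, against 17.9% and 23.7% of all genes. Without first-series mouse 3 the split was 3 higher and 4 lower, where 3606 of 22746 probes were higher and 4532 lower. With consecutive second-series arrays averaged it was 1 higher and 4 lower, where 3348 probes were higher and 3959 lower. On the authors' table it was 0 higher and 8 lower, where 3255 of 20910 probes were higher and 8196 lower. Besides Vip, the peptide genes Sst (somatostatin), Cck (cholecystokinin) and Npy (neuropeptide Y) and the serotonin receptor gene Htr3a were lower, by -0.54, -0.68, -0.45 and -0.54. Sst stood at 1506, 1765, 1432 and 1486 on the second-series arrays, against 3212, 3020.1 and 2815 on the first-series arrays. The Npy call (limma adjusted p 0.0257) was lost without first-series mouse 2 (0.0742) or 3 (0.0796) or second-series mouse 6 (0.0572). Dlx1, a transcription factor of interneurons and their precursors, stood at 70.9, 73.9, 72.7 and 63.4 on the second-series arrays, against 130.4, 138 and 389.7 on the first-series arrays. First-series mouse 3 stood apart from the other 6, and without it the difference was -0.48, against -0.91 with it, and was no longer called (limma adjusted p 0.072). With mouse 3 kept, the Dlx1 call was lost with only the 7 wild-type arrays in the fit (0.0502) and with consecutive second-series arrays averaged (0.124). It was also lost with mice 4 and 5 (0.0694) or mice 6 and 7 (0.0515) alone as the second series. First-series mouse 3 also had the highest Dcx, a gene of newborn neurons. Dcx stood at 67.3, 69.6, 55.2 and 63.2 in the second series and 93.5, 85.3 and 196 in the first (-0.45, not called). Dcx was called lower under median scaling (-0.72, limma adjusted p 0.0161) and on the authors' table (-0.87, 0.0149). Pvalb, of fast-spiking interneurons, was not called (0.32, limma adjusted p 0.0708), was called with only the 7 wild-type arrays in the fit (0.0476), and stood at -0.031 under median scaling.

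Other glial, vascular and meningeal genes moved less, and here the scaling matters. Over all genes the fit called 17.9% higher and 23.7% lower. Over all 22746 probes median scaling called 8607 higher and 8046 lower, and over 20910 the authors' table gave 3255 and 8196. Of 18 astrocyte genes 8 were higher and 3 lower in the fit, but 3 were higher and 8 lower under median scaling and 3 higher and 6 lower on the authors' table. Agt, angiotensinogen, which is rich in astrocytes of subcortical regions, stood at 146, 161, 172 and 185 on the second-series arrays, against 25.6, 20.3 and 31.8 on the first-series arrays, and rose by 2.00 (SE 0.18, limma adjusted p 9.94e-07). Gfap, the astrocyte intermediate filament, stood at 22.3, 19.6, 19.0 and 20.3 on the second-series arrays, against 5.7, 6.9 and 9.8 on the first-series arrays, and rose by 0.45. The amino acid transporter gene Slc7a10 rose by 0.73. These 3 were higher under every scaling. The gap junction gene Gja1 was not called (0.17) and turned to -0.44 under median scaling and -0.30 on the authors' table. Of 20 microglial genes 3 were higher and 4 lower in the fit, 0 higher and 13 lower under median scaling. P2ry12, the purine receptor of resting microglia, stood at 82.0, 73.7, 86.2 and 94.0 on the second-series arrays, against 209, 191 and 213 on the first-series arrays. It fell by 0.76, and Gpr34 and Fcrls fell by 0.44 and 0.50. The complement gene C1qa stood at 0.34 in the fit (limma adjusted p 0.0251), at -0.22 under median scaling and at -0.093 on the authors' table. Its call was lost without first-series mouse 1 (0.106) or 2 (0.0853) or second-series mouse 4 (0.0518) or 7 (0.0687).

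Of 18 endothelial genes 8 were higher and 0 lower in the fit, 6 higher and 3 lower under median scaling, and of 12 genes of pericytes and smooth muscle 3 were higher and 0 lower. The fit called 17.9% of all genes higher and 23.7% lower, and median scaling called 8607 of 22746 probes higher and 8046 lower. The lipid transfer protein gene Pltp (0.96), the organic anion transporter gene Slco1a4 (0.71), Pecam1 (0.19) and the pericyte receptor gene Pdgfrb (0.32) were higher under every scaling, Slco1a4 without a call under median scaling. The tight junction gene Cldn5 stood at 481, 472, 475 and 472 on the second-series arrays, against 424, 473 and 524 on the first-series arrays. These authors' levels overlap, and the difference was 0.43 in the fit (limma adjusted p 5.97e-04), -0.12 under median scaling and 0.00995 on the authors' table. Of 17 genes of meninges and fibroblasts 1 was higher and 5 lower. The retinoid-binding protein gene Crabp2 (-0.83), the GABA transporter gene Slc6a13 (-0.80) and the matrix gene Ogn (-0.77) were lower, and Igfbp2, which choroid plexus also makes, rose by 1.04. Ogn stood at 15.9, 16.8, 15.7 and 13.4 on the second-series arrays, against 27.0, 74.6 and 58.6 on the first-series arrays, with first-series mouse 1 nearest to the second series. With consecutive second-series arrays averaged, Crabp2 and Ogn lost their calls (limma adjusted p 0.0719 and 0.0848). Of 7 blood cell genes 1 was higher and 1 lower.

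Lists of neuronal structure and synapse held calls both ways, and Rbfox3, the usual neuronal marker, has no tested probe under that name. Of 13 general neuronal genes 4 were higher and 4 lower, and of 19 genes of glutamate receptors and postsynaptic scaffolds 6 were higher and 9 lower. Among all genes these shares were 17.9% and 23.7%. Under median scaling the first list held 2 higher and 7 lower, where 8607 of all 22746 probes were higher and 8046 lower. Nefh, the heavy neurofilament of large axons, stood at 142, 145, 129.7 and 142 on the second-series arrays, against 54.2, 44.7 and 37.9 on the first-series arrays, and rose by 1.37 (SE 0.12, limma adjusted p 8.79e-07). Snap25, a synaptic vesicle fusion gene, stood at 3363, 3485, 3665 and 4115 on the second-series arrays, against 6566, 6222 and 6328 on the first-series arrays, and its difference of -0.29 was called (limma adjusted p 0.0479), with adjusted p between 0.0614 and 0.139 when any mouse but second-series mouse 7 was left out. Shank3, a scaffold gene abundant in striatum, rose by 0.92, and the glutamate receptor gene Grm3 and the scaffold gene Homer1 fell by 0.98 and 0.60. The lists of striatum, thalamus and cortex moved between the same arrays, and their part in these values was not tested.

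Of 19 immediate early genes, which neurons switch on within minutes of activity, 0 were higher and 3 lower (15.8%) in the fit. The split was 2 higher and 7 lower under median scaling, and 0 higher and 7 lower on the authors' table. Over all genes the fit called 17.9% higher and 23.7% lower. Over all probes, median scaling called 8607 of 22746 higher and 8046 lower. The authors' table gave 3255 higher and 8196 lower of 20910 probes. The same shares apply to the glucocorticoid genes below. Fos stood at 120.3, 114, 124 and 124 on the second-series arrays, against 104, 221 and 419 on the first-series arrays. The first series spans the whole range, with mouse 3 highest, and Fos was not called (-0.41), though it was called lower without first-series mouse 1 (-0.83, limma adjusted p 0.00738), under median scaling (-0.81, 0.0157) and on the authors' table (-0.82, 0.0349). Arc, a synaptic plasticity gene, stood at 197, 205, 221 and 208 on the second-series arrays, against 94.4, 122 and 251 on the first-series arrays. It was not called (0.75, limma adjusted p 0.0611), but it was without first-series mouse 3 (1.06, limma adjusted p 0.0156) and with only the 7 wild-type arrays in the fit (0.0394). Ier5 fell by 0.68. Of 12 glucocorticoid response genes 1 was higher and 4 lower in the fit, 2 higher and 6 lower under median scaling, and 1 higher and 5 lower on the authors' table. Cdkn1a, a cell cycle inhibitor gene, stood at 16.2, 17.2, 10.8 and 16.8 on the second-series arrays, against 41.9, 46.7 and 49.8 on the first-series arrays, and fell by 0.71 (SE 0.08, limma adjusted p 8.03e-06). Nr3c1, the glucocorticoid receptor, fell by 0.33. Fkbp5, a chaperone gene that glucocorticoids induce, stood at 13.3, 21.8, 29.3 and 30.0 on the second-series arrays, against 41.3, 39.2 and 35.0 on the first-series arrays, and its difference of -0.31 (limma adjusted p 0.0258) was not called without first-series mouse 1 (0.0809) or 2 (0.0772) or second-series mouse 4 (0.0654) or 5 (0.0581).

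Of 16 circadian clock genes 1 was higher and 3 lower in the fit, 2 higher and 10 lower under median scaling, and 1 higher and 6 lower on the authors' table. Among all genes 17.9% were higher and 23.7% lower in the fit. The 2 other scalings called 8046 of 22746 and 8196 of 20910 probes lower, and 8607 and 3255 higher. The repressor gene Nr1d2 stood at 16.1, 13, 13.4 and 17.0 on the second-series arrays, against 36.3, 42.0 and 40.9 on the first-series arrays. Bhlhe40, another clock repressor gene, stood at 158, 135, 116 and 149 on the second-series arrays, against 336, 386 and 294 on the first-series arrays. They fell by 0.60 and 0.77 without overlap of the groups, while Per1, which light and stress induce, was not called (-0.15; -0.34 and called under median scaling). Of the cold-inducible RNA-binding protein genes, Cirbp stood at 448, 369, 400.0 and 394 on the second-series arrays, against 709.7, 697 and 769 on the first-series arrays and fell by 0.38 (SE 0.09, limma adjusted p 0.00323), and Rbm3 was not called (limma adjusted p 0.958).

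Metabolic and stress lists were mixed, where 17.9% of all genes were called higher and 23.7% lower in the fit. Of 12 hypoxia genes 3 were higher and 4 lower. The lactate dehydrogenase gene Ldha stood at 1219, 1507, 1924 and 1492 on the second-series arrays, against 3322, 4114 and 3157 on the first-series arrays, and fell by 0.80, as did the kinase gene Pdk1 (-0.59) and the oxygen sensor gene Egln3 (-0.49). Ndrg1, which is also a gene of myelinating cells, rose by 1.19. Of 12 genes of cholesterol synthesis 2 were higher and 3 lower in the fit, and 1 higher and 9 lower both under median scaling and on the authors' table. Sqle, squalene epoxidase, stood at 237, 229, 228 and 245 on the second-series arrays, against 582, 502 and 443 on the first-series arrays, and fell by 0.61, and Fdft1 fell by 0.57. Of 18 interferon and antigen presentation genes 5 were higher and 2 lower (Irf7 0.27, and Ifit1 -0.16, not called under median scaling), of 12 inflammation genes 2 higher and 3 lower (Ptgs2 -0.31, Lcn2 -0.54, the last not called without first-series mouse 1, adjusted p 0.0982), of 17 chaperone genes 4 higher and 3 lower (Hspa8 -0.56, with cyclic loess -0.22 and no call, and Dnajb1 -0.51) and of 18 oxidative stress genes 4 higher and 2 lower (Txnrd1 0.53, not called under median scaling or on the authors' table, and Sod1 -0.50). Cytosolic ribosomal protein genes were higher in 15 and lower in 7 of 61, and respiratory chain genes higher in 17 and lower in 13 of 78. Under median scaling these splits were 3 higher and 44 lower, and 4 higher and 62 lower, and for chaperones 0 and 11 and for oxidative stress 2 and 11. That scaling called 8607 of all 22746 probes higher and 8046 lower, with the brightest probes shifted down. The authors' table gave 3255 higher and 8196 lower of 20910 probes.

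Genes that differ between sexes or substrains were also read. Of 5 measured sex chromosome genes 2 were higher and 0 lower, where 17.9% of all genes were higher and 23.7% lower. Xist and Ddx3y have no tested probe under those names. The Y-linked Kdm5d stood at 43.4, 42.7, 39.6 and 46.6 on the second-series arrays, against 47.2, 31.0 and 37.8 on the first-series arrays, on all 7 arrays above the median probe. Its difference of 0.20 (limma adjusted p 0.0224) was not called without first-series mouse 2 (0.136) or 3 (0.0652) or second-series mouse 7 (0.0551). The X-linked histone demethylase gene Kdm6a was at 0.19 in the fit and at -0.094 and -0.033 under median scaling and on the authors' table. Of 5 genes known to differ between C57BL/6 substrains, limma called 0, with 1 (Gabra2) at an unadjusted p under 0.05. Median scaling called 1 higher and 3 lower, and the authors' table gave 0 higher and 2 lower. Over all probes these 2 scalings called 8607 higher and 8046 lower of 22746, and 3255 and 8196 of 20910. Nnt, the mitochondrial transhydrogenase gene with a deletion in C57BL/6J mice, stood at 41.1, 42.4, 41.5 and 33.7 on the second-series arrays, against 39.2, 56.2 and 37.0 on the first-series arrays. Those values overlap (0.02). Gabra2, a GABA-A receptor gene whose expression differs between substrains, stood at 83.1, 70.6, 73.3 and 76.3 on the second-series arrays, against 123, 116 and 135 on the first-series arrays, without overlap and with a difference of -0.31 (limma adjusted p 0.0531), which was called when only the 7 wild-type arrays entered the fit (0.00503), under median scaling (-0.62) and on the authors' table (-0.72). Atrx itself, wild type in these mice, stood at 22.9, 16.3, 20.2 and 22.0 on the second-series arrays, against 34.9, 46.3 and 48.7 on the first-series arrays, and fell by 0.48 (SE 0.08, limma adjusted p 4.77e-04).

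**Figure D3:**
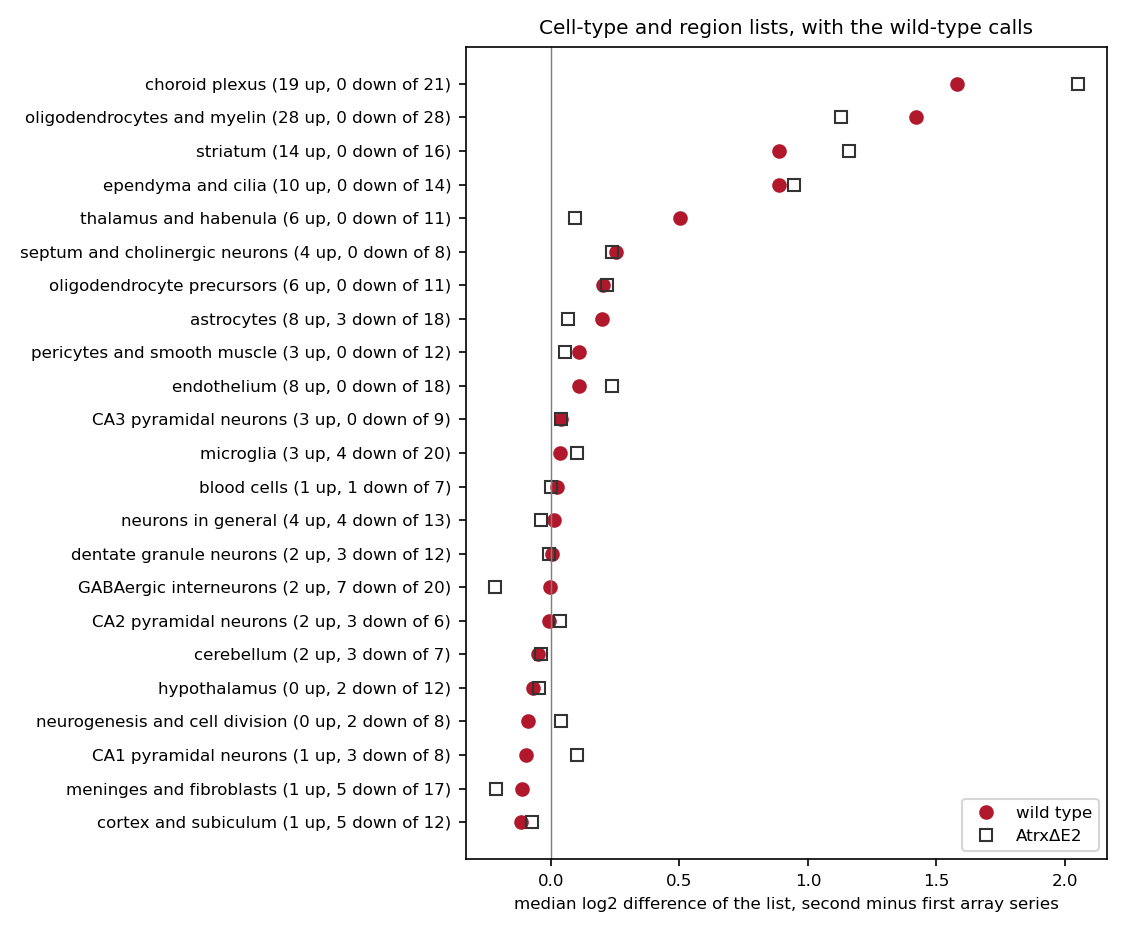
The median log2 difference, second minus first array series (horizontal axis), is plotted for 23 cell-type and region lists, with filled circles for wild type and open squares for AtrxΔE2, and the row labels give the wild-type calls. Choroid plexus, myelin, striatum, ependyma and thalamus stand to the right of the other lists in wild type, at 1.58, 1.42, 0.89, 0.89 and 0.50.

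The separation of the leading lists held on each array. Each gene was centred on the 7 arrays and the median of a list's genes was taken on each array. By this median, choroid plexus genes lay between 0.63 and 0.71 on the second-series arrays, against -0.93 to -0.90 on the first-series arrays. Myelin genes lay between 0.57 and 0.76, against -0.89 to -0.79, and striatal genes between 0.34 and 0.42, against -0.54 to -0.48. Thalamic and habenular genes varied more within the second series, from 0.13 to 0.41, against -0.37 to -0.19 in the first. Cortical genes lay between -0.076 and 0.0086, against 0.027 to 0.072.

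Second-series arrays with consecutive numbers were compared as pairs, mice 4 and 5 and mice 6 and 7. The SD over probes of the log2 difference between 2 arrays was 0.124 for mice 4 and 5 and 0.0997 for mice 6 and 7, 0.115 to 0.144 between second-series mice of different pairs, 0.133 to 0.153 within the first series, and 0.307 to 0.329 between a second-series and a first-series array. Between series, 290 to 370 probes differed by over 1 in any pair of arrays, against 4 to 23 within a series. The consensus correlation, an estimate over probes of how alike arrays of a block are, was 0.337 for consecutive second-series arrays. It was 0.0699 for blocks of arrays with the same number in wild type and AtrxΔE2. The fit of single arrays treats consecutive arrays as independent, so its p-values may be too small. What consecutive arrays share was not tested.

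With each pair averaged to 1 value, which leaves 2 second-series values, limma called 7307 of 22746 probes (3348 higher) in the model of all groups and 6511 when only wild-type arrays entered. The choroid plexus, myelin, ependymal and striatal lists then held 19, 28, 10 and 13 higher members in the first of these fits. Setting either pair alone against the first series gave 7312 calls for mice 4 and 5 and 6961 for mice 6 and 7. The thalamic and habenular median was 0.32 with mice 4 and 5 and 1.05 with mice 6 and 7. The second value equals that of the habenular gene Gpr151, which stood at 1.05 with mice 6 and 7 and at -0.044 with mice 4 and 5. Prkcd and Slc17a6 had their higher levels in mice 4 and 5, and Lhx9 in mice 6 and 7, so the median does not measure thalamic genes as a whole.

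The AtrxΔE2 mice carried the same split of series and share no array with the wild-type comparison. Among them limma called 9677 probes (42.5%), 4392 higher (19.3%) and 5285 lower (23.2%) in the second series, while the authors' table gave 2601 higher and 8924 lower. Over all tested probes the differences of wild type and AtrxΔE2 had a Pearson correlation of 0.90 and a Spearman correlation of 0.84, given as a description, since the arrays of a series have in common whatever separates the series. Of the 9375 wild-type calls, 97.5% had the same sign in AtrxΔE2, and 7058 were called there too, which is 75.3% of the wild-type and 72.9% of the AtrxΔE2 calls. Of the 288 wild-type calls over 1, 281 were called in AtrxΔE2 with the same sign. Ttr differed by 9.16 in wild type and 8.80 in AtrxΔE2, Mbp by 2.84 and 2.38, Penk by 2.90 and 2.94, and Vip by -2.39 and -2.58. List medians in wild type and AtrxΔE2 were 1.58 and 2.05 for choroid plexus, 1.42 and 1.13 for myelin, and 0.89 and 1.16 for striatum. For thalamus and habenula the median was 0.50 in wild type, with 6 of 11 called higher, and 0.093 in AtrxΔE2, with 2 called higher. The 5-ALA arrays, all in the second series, had 29015, 27329, 27512 and 30887 for Ttr.

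The difference between the genotypes was tested as an interaction, the wild-type series difference minus that of AtrxΔE2. It called 22 of 22746 probes (0.0967%), 10 higher (0.044%) and 12 lower (0.0528%) in wild type, with 2027 at an unadjusted p under 0.05. With consecutive second-series arrays averaged it called 0 higher and 5 lower, so that none of the positive interactions below was called there. In the fit of single arrays Slc17a6 led, at 2.05 (SE 0.31, limma adjusted p 0.023). Its levels in AtrxΔE2 mice were 57.7, 71.7, 29.7 and 34.3 on the second-series AtrxΔE2 arrays, against 37.8, 36.2 and 54.9 on the first-series ones, which overlap (0.22, not called). The septal and thalamic genes Zic1 and Zic2 also had positive interactions, at 0.96 (SE 0.15, limma adjusted p 0.0263) and 0.94 (SE 0.16, limma adjusted p 0.0414). Rora, a nuclear receptor abundant in thalamus, had one of 1.03 (SE 0.15, limma adjusted p 0.023). In AtrxΔE2 mice Zic1 rose by 0.29, Zic2 stood at -0.25 without a call, and Rora fell by 0.58 (limma adjusted p 6.4e-04). The wild-type rise of Rora was 0.45, and was not called under median scaling or on the authors' table. Tmie had a positive interaction of 0.68, with a rise of 0.49 in wild type and a difference of -0.18 in AtrxΔE2. For Prkcd, whose rise was 4.08 in wild type and 2.04 in AtrxΔE2, the difference was not called (limma adjusted p 0.367).

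The negative interactions included choroid plexus genes, which rose in both genotypes and more so in AtrxΔE2. Cldn2, a tight junction gene of that epithelium, stood at 54.4, 59.6, 63.2 and 52.8 on the second-series arrays, against 1.1, 1.2 and 1.7 on the first-series arrays, and rose by 1.60 in wild type and 2.18 in AtrxΔE2, an interaction of -0.58 (SE 0.08, limma adjusted p 0.013). Defb11 had an interaction of -0.60 (SE 0.07, limma adjusted p 0.00642) and Lbp, the lipopolysaccharide-binding protein gene, one of -0.49 (SE 0.08, limma adjusted p 0.0263). Of the choroid plexus list 3 members were called, against 1 of the thalamic, 2 of the septal and 0 of the myelin and striatal lists. Over all probes the share was 0.0967%. The count of 22 was unsteady: it was 8 on the authors' table (7 higher and 1 lower), 13 without first-series mouse 1, 5 without first-series mouse 2, 9, 6 and 13 without second-series mice 4, 5 and 6, and 32 and 17 without first-series mouse 3 and second-series mouse 7.

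**Figure D4:**
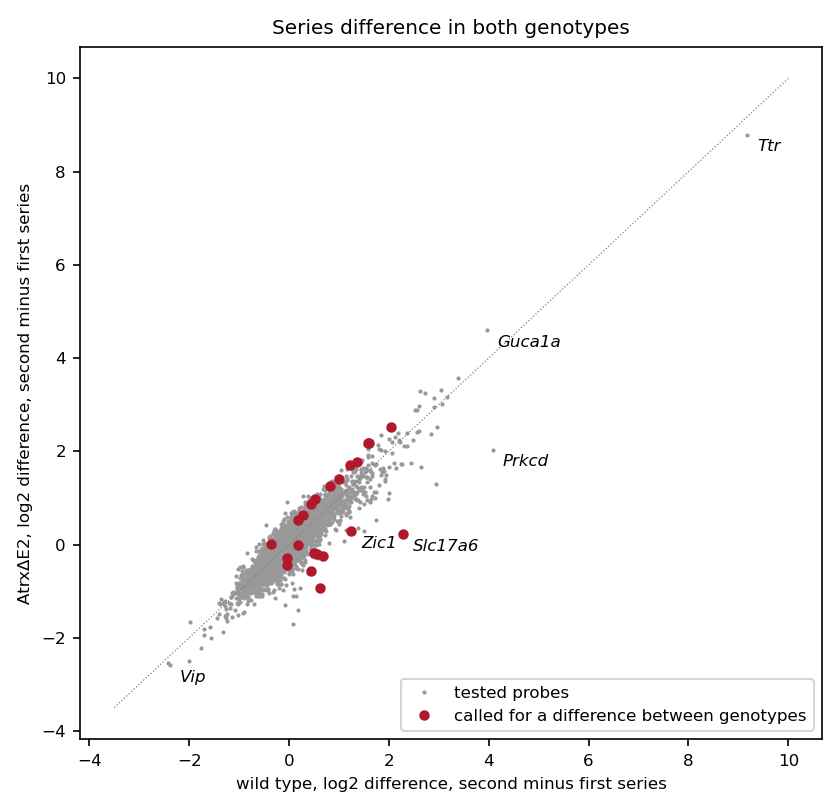
Each point is 1 of 22746 tested probes, with the log2 difference between series in wild type (horizontal axis) and in AtrxΔE2 (vertical axis), and the 22 probes called for a difference between genotypes are in red. Most points follow the dotted line of equal difference, with Ttr at 9.16 and 8.80, while Slc17a6 and Zic1 lie below it.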

How the data were processed

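RNA was amplified to amino allyl RNA, coupled to a Cy dye and hybridised to Toray arrays, per the labels' protocols. The deposited spot values are median intensities at 635 nm, from scans at 3 gains joined by least squares and not background subtracted, per the file headers. The authors' table of normalized intensities has a median of 25 on every array. How the authors normalized it is not given in the sources used here. Subtracting the trimmed mean of the blank spots and scaling each array to a median of 25 reproduced levels of at least 25 within 0.323% on every array. The authors' table therefore also scales arrays to their median, and is not independent of the median scaling used here.

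Intensities of all 18 arrays were background-corrected (normexp, offset 50) and quantile-normalized on the log2 scale, spots of a probe were averaged, and limma 3.58.1 in R 4.3.3 was fitted to 5 groups (22746 probes above the 95th percentile of 2736 blank spots on at least 3 arrays, 727 left out). Moderated tests were adjusted by Benjamini-Hochberg, with 0.05 as the threshold, and the script was tested on simulated data. Of 23473 probes 16631 had 1 gene symbol and 6842 none, and 3947 symbols were updated through a synonym. A gene was read by its brightest probe, except that the 20 largest rises and 20 largest falls took the gene's probe of largest change. Of 223 genes with several tested probes, 12 had called probes of opposite sign.

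The groups, members and 38 gene lists were chosen with earlier results of these data known. Genes were named by rule: the 20 largest called rises and 20 largest falls, up to 8 called and 4 uncalled members of each list, defining markers, and up to 10 probes with the largest called interaction. The text gives 161 of these. Alternatives changed scaling, background, filter, prior, weights, samples and values. Deviations from group means correlated at -0.138 to 0.507 between same-numbered wild-type and AtrxΔE2 arrays. Only for number 3 was the own number the best match within its series (0.507, against at most -0.311 with the other numbers). The log2 difference between these 2 first-series arrays had an SD of 0.0991, the smallest of any 2 arrays. What they share was not tested.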

Additional observations from a re-analysis of the deposited data

Results flagged for a closer look

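In 11 of 161 named genes, 1 of the 4 second-series wild-type arrays stood apart from the other 3 on the log2 scale. Chance flags about 1 in 20 groups. Mouse 4 had 15.47 for Ttr, against 15.69 in the other 3, which is far above the first series all the same, 5.89 for Hydin and 7.642 for Gpr34. Mouse 5 had 6.064 for Ido1 and 7.517 for Stxbp6. Mouse 6 had 6.448 for Cspg4, 9.01 for Arc and 6.174 for Cdkn1a. Mouse 7 had 7.442 for Dlx1, 9.448 for Dnajb1 and 6.856 for Nnt.

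For 10 probes the series difference of wild type minus that of AtrxΔE2 was called by limma's interaction test and was among the largest. It was 2.05 for Slc17a6, 1.03 for Rora, 0.958 for Zic1, 0.941 for Zic2 and 0.677 for Tmie. The probes M200008223 and M200015376, which have no gene symbol here, had 1.56 and 0.759. It was -0.596 for Defb11, -0.583 for Cldn2 and -0.489 for Lbp.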

How the results depend on the processing

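The wild-type count of 9375 calls was within 1.5 times of itself under all alternatives but 2: it was 16653 with median scaling and 288 with a log2 difference over 1 required. For AtrxΔE2 these counts were 15551 and 329. No paired analysis was possible because the 2 wild-type groups share no replicate number. With the number shared by wild type and AtrxΔE2 as a random replicate block, the counts were 9389, 9673 and, for the interaction, 34. The interaction count of 22 (10 higher, 12 lower) was 8 on the authors' table (7 and 1), 52 with array weights, 5 with consecutive arrays averaged (0 and 5), 5 at an adjusted p under 0.01, 3 with a difference over 1, and 5 to 32 without 1 wild-type array. The cause was not tested. Of 139 named and called genes, 136 kept 1 sign and 117 their call under every alternative.

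With median scaling and on the authors' table, list medians turned to -0.186 and -0.095 for astrocytes, -0.00446 and -0.0803 for interferon genes, and -0.401 and -0.289 for oxidative stress, and with median scaling to 0.0482 for neurogenesis. The blood cell median was -0.0039 with array weights, -0.00529 with mice 4 and 5 alone, and -0.0172 to 0.0494 without 1 array. Without 1 array, medians were -0.131 to 0.0172 for neurogenesis, -0.152 to 0.0242 for postsynaptic genes and -0.0121 to 0.111 for oxidative stress. Single genes turned to -0.438 and -0.301 (Gja1), -0.22 and -0.0926 (C1qa) and -0.0936 and -0.0334 (Kdm6a) under median scaling and the authors' table, and to 0.152 (Tcf7l2) and -0.122 (Cldn5) under median scaling. The settings with pairs averaged in a fit of wild-type arrays only, and with mice 4 and 5 or 6 and 7 alone, were chosen after seeing the data. Signal over background limits dim genes, whose differences the offset shrinks.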
